A study of Mus musculus with 8 samples.

Results

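The genes of the WNT ligand system were examined in mouse ovaries around the time of ovulation. They are the 48 protein-coding genes, of 41591 gene IDs in each count table, whose symbols name a WNT ligand (Wnt), a Frizzled receptor (Fzd), a secreted Frizzled-related or Dickkopf antagonist (Sfrp, Dkk), or 1 of Frzb, Wif1, Lrp5, Lrp6, Rspo1, Rspo2, Rspo3, Lgr4, Lgr5, Axin2 and Ctnnb1. By role they fall into 19 ligands, 12 receptors and co-receptors, 10 secreted antagonists, 5 R-spondin and LGR genes and 2 intracellular genes. Whole ovaries of superovulated C57BL/6 female mice of about 3 weeks were sequenced. The 4 DKO libraries carry, per their labels, a double knockout of Insr and Igf1r, which encode the receptors for insulin and for insulin-like growth factor 1, and the series design calls it conditional. The 4 Control libraries are littermates, labelled wild type and positive for Pgr-Cre, in which Pgr, the gene of the progesterone receptor, drives Cre recombinase. All mice had received 4 IU of equine chorionic gonadotropin (eCG), which drives follicle growth, then 5 IU of human chorionic gonadotropin (hCG) 48 h later, and ovaries were taken 12 h after hCG. The labels name the Cre driver for Control mice only.

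WNT proteins are secreted lipid-modified signals that bind a Frizzled receptor together with the co-receptor LRP5 or LRP6. In the canonical branch this stops the breakdown of β-catenin, the product of Ctnnb1, which then enters the nucleus and activates target genes with TCF/LEF factors. Secreted Frizzled-related proteins and WIF1 bind WNT proteins, several Dickkopf proteins block LRP5 and LRP6, and R-spondins bound to LGR receptors keep Frizzled receptors at the cell surface. In the mouse, Wnt4 and Rspo1 are needed for the gonad to develop as an ovary, and Fzd4 is needed for a working corpus luteum.

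No member of the system passed the test between DKO and Control ovaries. Of the 48 members 35 had enough counts to be tested, and edgeR's quasi-likelihood test called 0 higher and 0 lower in DKO at an adjusted p under 0.05, where over all 16870 genes tested it called 0.759% higher and 0.498% lower. The members' adjusted p ran between 0.104 and 0.956. At an unadjusted p under 0.05 there were 3 members higher in DKO (Wnt6, Wnt10b and Ctnnb1) and 3 lower (Wnt11, Fzd1 and Lgr4), against 8.43% of all tested genes higher and 6.98% lower. The 4 DKO values lay wholly above the 4 Control values in 1 tested member (Ctnnb1) and wholly below in 2 (Wnt11 and Fzd1), against 5.70% and 3.54% of all tested genes. These counts lie near those shares of 35 members.

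Other tools called a few members. DESeq2 called 0 higher and 2 lower, Wnt11 (adjusted p = 0.00588) and Fzd1 (adjusted p = 0.00993), where it called 4.13% of all genes higher and 3.06% lower. Limma-voom called 0 in either direction. Limma-voom with quality weights, which gives less weight to libraries that stand apart, called 2 members higher (Wnt10b, adjusted p = 0.00602, and Wnt4, adjusted p = 0.0487) and 2 lower (Fzd1, adjusted p = 0.0283, and Wnt11, adjusted p = 0.0328), where it called 5.90% and 3.88% of all genes.

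Of the 35 tested members 18 lay above 0 and 17 below, so 51.4% were above 0, against 46.9% of all tested genes. Their median log2 fold change, DKO over Control, was 0.07, and that of all tested genes was -0.021. A difference of 2-fold or more, 1 on the log2 scale, was seen in 3 members (Wnt10b, Wnt11 and Fzd1) and in 4.46% of all genes. The median SE of a member's log2 fold change was 0.29.

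**Figure D1:**
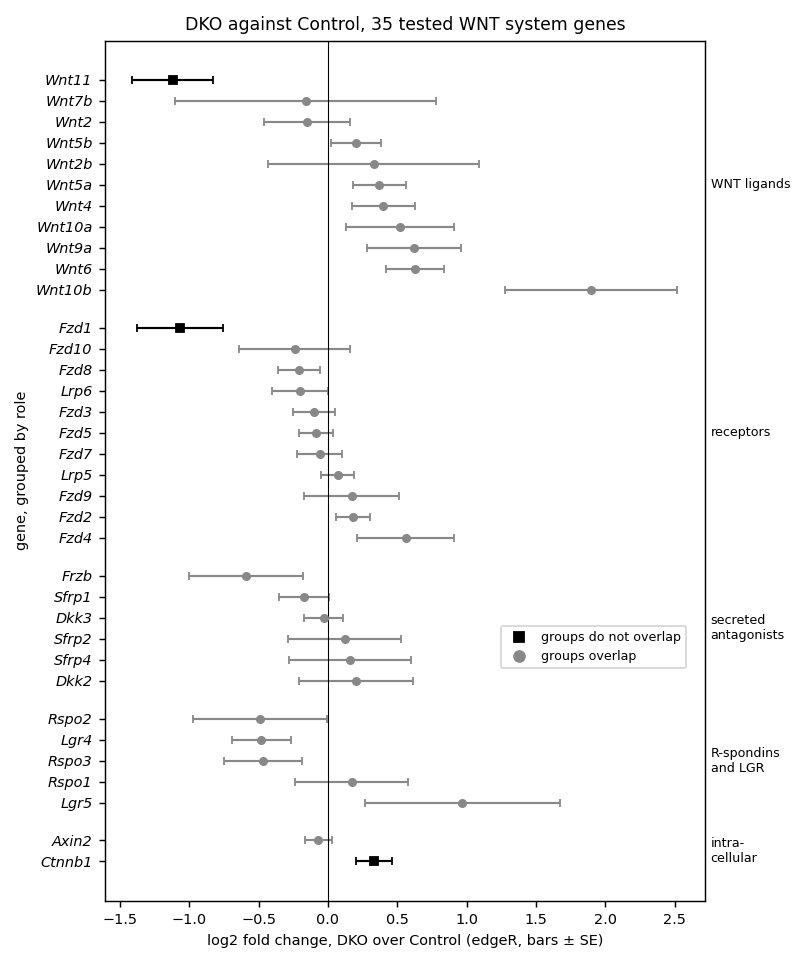
Log2 fold change of the 35 tested members, DKO over Control, with bars of 1 SE, grouped by role and ordered within a role. Black squares mark the 3 members whose 4 DKO and 4 Control values do not overlap, Wnt11 (-1.12), Fzd1 (-1.07) and Ctnnb1 (0.33), and Wnt10b has the largest value (1.90).

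The libraries held 33145056 to 39257648 counts in genes. Insr was at 126 ± 16.8 CPM (counts per 1 M (mega) counts, with library sizes scaled by TMM factors) in DKO and 155 ± 10.3 CPM in Control ovaries, and Igf1r at 214 ± 22.4 CPM in DKO and 236 ± 28.6 CPM in Control ovaries (mean ± SD, n = 4 each). Neither passed the edgeR test (adjusted p = 0.226 and 0.639), and counts over whole genes in a whole ovary check the labels only weakly. Granulosa cell markers, summed over 7 genes, were at 2690 to 3300 CPM in DKO and 2260 to 3040 CPM in Control ovaries. Inha and Nr5a2 made up most of that sum, 4 of the 7 lay above 0 and 0 were called. Only Foxl2 did not overlap, at 171 to 220 CPM in DKO and 108 to 144 CPM in Control ovaries. Its log2 fold change was 0.58 (edgeR, adjusted p = 0.0716). Some libraries stood apart. Ribosomal RNA genes took 2.66% and 2.57% of the counts in DKO 1 and DKO 2 and at most 0.311% in the other 6 libraries. Markers of oviduct epithelium, summed over 7 genes, were at 1010 CPM in DKO 2 and 1570 CPM in Control 1, and at 154 to 224 CPM in the other 6. Without DKO 1 and DKO 2 the log2 fold change of 26 of the 35 tested members moved by over 1.5 times or changed sign, and without Control 1 and DKO 2 that of 13 did. Members near 0 meet this rule by small shifts, and the share of all tested genes that meet it was not counted. In whole ovaries fewer cells of a type and less RNA per cell cannot be told apart.

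The level of each member was compared per length, as RPKM (CPM per kb of exon in the count table). Sfrp4, a secreted Frizzled-related antagonist known from the rodent corpus luteum, was the most abundant at a mean of 847 RPKM over the 8 libraries, between 325 and 1270. Ctnnb1 followed at 226 RPKM, between 188 and 292. These 2 genes had ranges apart from each other and from all those below them. The next 9 members had means of 10 RPKM or more with ranges that overlapped from each to the next. They were Wnt4 (50.5), Lgr4 (49.5), Sfrp1 (33.7), Fzd1 (28.2), Lrp5 (27), Dkk3 (21.5), Lrp6 (20.3), Frzb (13.8) and Wnt6 (10.7). In all, 29 members had a mean of 1 RPKM or more.

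**Figure D2:**
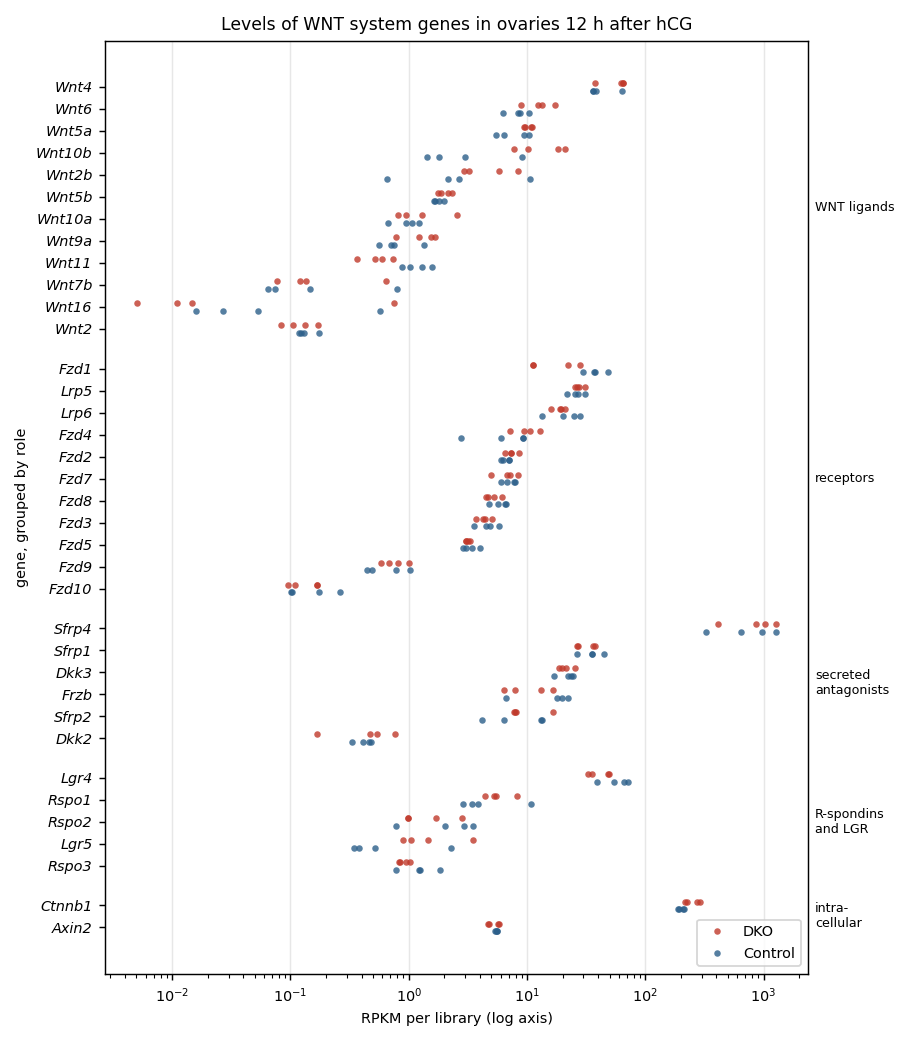
RPKM in each library on a log axis for the members with a mean of at least 0.1 RPKM, grouped by role, DKO points above Control points. Sfrp4 and Ctnnb1 are the highest, Wnt4 leads the ligands, and Wnt16 and Wnt7b show 1 high library in each group.

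Among the ligands, Wnt4 made up most of the ligand level per length in most libraries. It took 39.3, 54.4, 60.2 and 61.6% of the summed ligand RPKM in the DKO libraries and 46.6, 60.1, 70.9 and 58.6% in the Control libraries. Coordinates are those of the count tables, on GRCm38.p5. Wnt4, gene ID 22417 at 137277635 to 137299501 on chromosome 4, had values of 143, 250, 239 and 246 CPM in DKO and 139, 137, 242 and 147 CPM in Control ovaries. The groups overlapped, with DKO 1 near the low Controls and Control 3 near the high DKO libraries. Its log2 fold change was 0.40 ± 0.23 (SE) with a 95% interval of -0.16 to 0.96 on 6 residual degrees of freedom, and it did not pass (edgeR, adjusted p = 0.457).

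Wnt11, a ligand best known for signalling that does not use β-catenin, had the smallest p of all members. It lies on chromosome 7 (gene ID 22411, 98834916 to 98854747, plus strand). The promoters of Wnt11, Fzd1 and Ctnnb1 are shown because these are the 3 tested members whose groups did not overlap, and because insulin and IGF receptors signal to FOXO factors and WNT signalling acts through TCF/LEF factors. The windows come from RefSeq on GRCm38.p6 and run from 250 bases before to 50 after an annotated start of the gene, 5′ to 3′ on the gene's strand. Capitals mark a match to a TCF/LEF motif on either strand, where the motif is CTTTGAA and the variants CTTTGAT, then also CTTTGTA, and last CTTTGTT were counted with it.
Wnt11, chr7:98834862-98835161, plus strand: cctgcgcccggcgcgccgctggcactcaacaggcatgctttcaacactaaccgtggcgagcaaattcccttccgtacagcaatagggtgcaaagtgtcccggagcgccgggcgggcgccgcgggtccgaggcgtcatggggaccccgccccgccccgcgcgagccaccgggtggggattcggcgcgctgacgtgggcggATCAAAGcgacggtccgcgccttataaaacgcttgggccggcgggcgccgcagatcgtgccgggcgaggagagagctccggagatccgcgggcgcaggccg
Fzd1, chr5:4758167-4758466, minus strand: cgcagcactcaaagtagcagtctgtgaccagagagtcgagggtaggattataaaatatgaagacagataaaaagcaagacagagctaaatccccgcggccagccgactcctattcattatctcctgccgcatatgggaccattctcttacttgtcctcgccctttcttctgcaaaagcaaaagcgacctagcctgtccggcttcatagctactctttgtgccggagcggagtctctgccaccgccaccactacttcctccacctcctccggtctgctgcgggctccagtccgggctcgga
Ctnnb1, chr9:120933150-120933449, plus strand: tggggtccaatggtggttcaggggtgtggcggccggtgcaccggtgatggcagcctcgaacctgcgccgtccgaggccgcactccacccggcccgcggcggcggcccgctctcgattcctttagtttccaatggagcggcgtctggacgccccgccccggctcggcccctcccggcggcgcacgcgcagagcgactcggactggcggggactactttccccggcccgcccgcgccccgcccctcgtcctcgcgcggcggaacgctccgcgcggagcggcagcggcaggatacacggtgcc
The Wnt11 window holds 1 match, CTTTGAT on the opposite strand, whose first base lies 51 bases before the start this window was built on, base 98835112. That start, 1 of 2 in the RefSeq windows for Wnt11, lies inside the span of the count table printed above, and so does the match. The Fzd1 and Ctnnb1 windows hold 0 matches. Of the 48 members 31 had a window, 35 windows in all, and 5 of those windows held the TCF/LEF motif (Dkk1, Fzd7, Wnt11, Wnt3 and Wnt5b), where 16.9% of the 32851 windows of all genes did. The FOXO motif GTAAACA was in 0 of the 35, against 3.65% of all windows. A match is a run of letters and not a bound site. The members with no window are Lrp5, Lrp6, Fzd2, Fzd3, Fzd6, Fzd8, Dkk3, Dkk4, Sfrp1, Sfrp4, Wnt5a, Wnt7b, Wnt8a, Wnt10a, Rspo2, Rspo3 and Lgr5.

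Wnt11 was at 1.27, 2.56, 2.08 and 1.81 CPM in DKO ovaries and 5.53, 3.62, 4.51 and 3.08 CPM in Control ovaries, from 50 to 87 and 101 to 206 counts. Every DKO library lay below every Control library. The log2 fold change was -1.12 ± 0.29, or 0.461-fold, and it did not pass over all genes (edgeR, adjusted p = 0.104). It was -1.09 without DKO 1 and DKO 2, and ranged from -1.27 to -0.94 when each library was left out in turn. After the group means were removed, the genes whose log2 CPM ran closest to Wnt11 over the 8 libraries were Gm40826 (Pearson r = 0.970), Lama5 (0.956), Trpv4 (0.954), Adgrf3 (0.951) and Tekt2 (0.950), which is a description chosen from all tested genes.

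Wnt10b and Wnt6, ligands best known for canonical signalling, were the 2 with the smallest p among those higher in DKO. Wnt10b (gene ID 22410, chromosome 15, 98770712 to 98778212) was at 61.9, 71.1, 34.7 and 26.7 CPM in DKO and 10.3, 6.1, 30.7 and 4.91 CPM in Control ovaries. The groups overlapped through Control 3, which lay above DKO 4. This gave a log2 fold change of 1.90 ± 0.62 (edgeR, adjusted p = 0.188). Without Control 3 it was 2.77 and passed (adjusted p = 0.029), and without DKO 1 and DKO 2, the libraries rich in ribosomal RNA, it was 1.26 (adjusted p = 0.634). Wnt10b took 7.49 to 19% of the summed ligand RPKM in DKO and 2.2 to 10.1% in Control ovaries.

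Wnt6 (gene ID 22420, chromosome 1, 74754342 to 74785322) was at 40.2, 20.6, 28.9 and 30.9 CPM in DKO and 23.8, 19.4, 14.4 and 20 CPM in Control ovaries. DKO 2 lay below Control 1, and the other DKO libraries lay above all Controls. At 0.63 ± 0.21 its log2 fold change did not pass (edgeR, adjusted p = 0.179), with 0.64 without DKO 1 and DKO 2 and 0.91 without Control 1 and DKO 2. Its neighbour Wnt10a, 6.7 kb away on chromosome 1, was at 1.59 to 4.98 CPM in DKO and 1.32 to 2.38 CPM in Control ovaries (0.52 ± 0.39, adjusted p = 0.587, and 0.22 without DKO 1 and DKO 2).

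Of the 11 ligands tested 8 lay above 0 and 3 below, with a median of 0.37, beside 46.9% above 0 and a median of -0.021 over all genes. The summed ligand level was 95.4, 120, 104 and 105 RPKM in DKO and 78.3, 59.9, 89.4 and 65.4 RPKM in Control ovaries, so the groups did not overlap, with DKO 1 close above Control 3. Wnt10b took 19% of the sum in DKO 1 and 10.1% in Control 3. Without Wnt10b, which did not pass the test, DKO 1 lay below Control 3 and the groups overlapped. Without DKO 1 and DKO 2, only Wnt2b of the ligands above 0 turned sign (-0.39), while Wnt10b fell to 1.26 and Wnt4 was 0.56. That fit keeps Control 1, where Wnt2b was highest. In the 5 libraries with the highest title numbers, without DKO 1, DKO 2 and Control 1, Wnt2b was 0.77 ± 0.47. Wnt5a, a ligand of the β-catenin-independent branch, was at 65.5, 66.8, 74.6 and 76.8 CPM in DKO and 71.9, 44.5, 37.9 and 65.3 CPM in Control ovaries (0.37 ± 0.19, adjusted p = 0.398, and 0.57 without Control 1 and DKO 2), and Wnt9a was at 2.64 to 5.65 CPM in DKO and 1.9 to 4.62 CPM in Control ovaries (0.62 ± 0.34, adjusted p = 0.425, and 0.26 without DKO 1 and DKO 2). Markers of luteinizing cells, summed over 6 genes of which 4 lay above 0 and 1, Hsd3b1, was called higher, were at 15400 to 21300 CPM in DKO and 8090 to 14900 CPM in Control ovaries, with Control 3 the highest Control. Cyp11a1 and Hsd3b1 made up most of that sum. Star was flat (-0.0068), and Parm1 (-0.60) was lower in every DKO library than in any Control. None of these markers was at 0 in any library. Their part in the ligand levels was not tested.

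In 11 members DKO 2 was the highest DKO library and Control 1 the highest Control library, and in 7 of these, Wnt1, Wnt2, Wnt2b, Wnt7b, Wnt16, Lgr5 and Rspo1, they were the 2 highest of all 8. The other 4 were Wnt9a, Wnt11, Fzd4 and Axin2. Over all tested genes the deviations of DKO 2 and Control 1 from their group means correlated at 0.638, so a joint lead is not particular to these members. The share of all genes with such a lead was not counted. Wnt7b was at 0.533, 2.86, 0.343 and 0.603 CPM in DKO and 3.55, 0.283, 0.33 and 0.641 CPM in Control ovaries. Wnt16, below the filter, had 3, 134, 1 and 2 counts in DKO and 112, 5, 3 and 9 counts in Control ovaries. Wnt2b was at 20.7, 29.9, 10.4 and 11.5 CPM in DKO and 38.2, 7.66, 2.36 and 9.52 CPM in Control ovaries (0.33 ± 0.76, adjusted p = 0.883, and 1.14 ± 0.47 without DKO 2 and Control 1). Wnt1 had 0, 7, 1 and 0 counts in DKO and 2, 0, 0 and 0 counts in Control ovaries. The same libraries led in markers of ovarian surface epithelium and mesothelium, summed over 6 genes, at 175, 374, 127 and 121 CPM in DKO and 615, 89.4, 89.6 and 102 CPM in Control ovaries. They led also in the oviduct markers, of which Ovgp1 alone was at 724 CPM in DKO 2 and 1150 CPM in Control 1, and at most 23.8 CPM elsewhere. The part of these cells in the 11 genes was not tested, and no marker of either list was at 0 in a library.

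**Figure D3:**
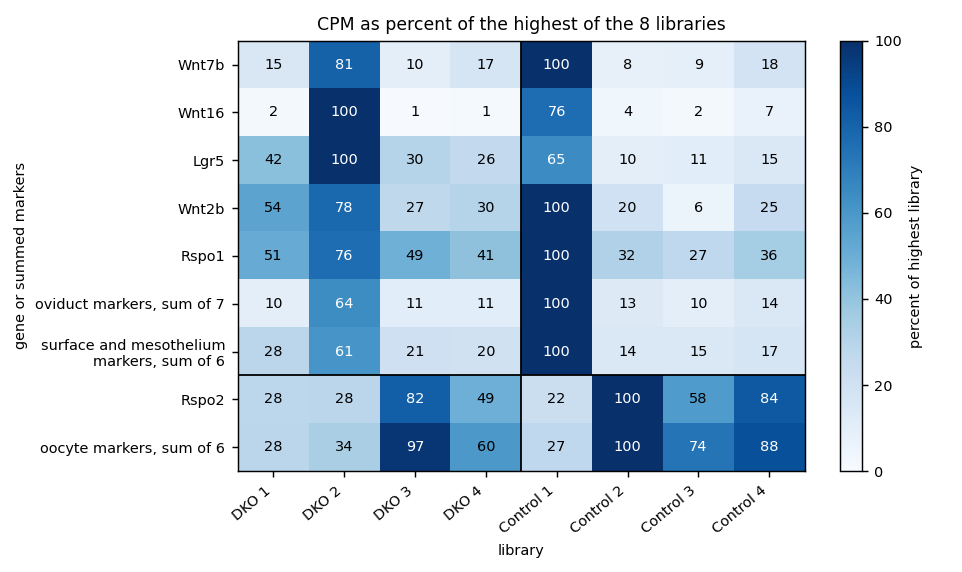
CPM in each library as a percent of the highest of the 8 libraries, for 6 members, chosen after their values were seen, and 3 summed marker lists. Wnt7b, Wnt16, Lgr5, Wnt2b and Rspo1 are highest in DKO 2 and Control 1, as are the oviduct and surface markers, and Rspo2 is lowest where the oocyte markers are lowest, in DKO 1, DKO 2 and Control 1.

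The remaining ligands were rare or near 0. Wnt5b, at 5.25 to 6.88 CPM in DKO and 4.85 to 5.82 CPM in Control ovaries, did not pass (0.20 ± 0.18, adjusted p = 0.66, and 0.07 without DKO 1 and DKO 2), and Wnt2 was under 1 CPM in every library. Wnt9b had 7, 9, 6 and 5 counts in DKO and 1, 3, 2 and 1 counts in Control ovaries, and Wnt7a 4, 6, 7 and 5 counts in DKO and 11, 10, 16 and 8 counts in Control ovaries. Among genes below the filter with 10 or more counts in all, 1.56% lay wholly higher in DKO and 2.04% wholly lower. Of the 8 such members Wnt9b was wholly higher, and Wnt7a and the antagonist Sfrp5 were wholly lower. With no filter on counts none of these 3 passed (edgeR, adjusted p = 0.257 for Wnt9b, 0.484 for Wnt7a and 0.223 for Sfrp5). Wnt1, Wnt3, Wnt3a and Wnt8a had at most 7 counts in a library, and Wnt8b had 0 in all 8. A count of 0 allows up to 3 counts, or 0.0761 to 0.0915 CPM by library, for counting error only.

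Fzd1 showed the largest difference among the receptors. It is a Frizzled gene known in rodents to rise in granulosa cells of preovulatory follicles after hCG, and lies on chromosome 5 (gene ID 14362, 4753839 to 4758216, minus strand). Fzd1 was at 49.2, 48.8, 97.2 and 123 CPM in DKO ovaries and 130, 165, 160 and 213 CPM in Control ovaries. All 4 DKO libraries lay below all 4 Controls, and DKO 1 and DKO 2, rich in ribosomal RNA, were the lowest. The log2 fold change was -1.07 ± 0.31, or 0.476-fold, and it did not pass (edgeR, adjusted p = 0.145). Without DKO 1 and DKO 2 it was -0.58 ± 0.20 (adjusted p = 0.347). With the numbers in the sample titles as a block it was -0.96 ± 0.16 and passed (edgeR, adjusted p = 0.0209). The part of ribosomal RNA in its size was not tested. Fzd1 took 11.1, 11.5, 22.8 and 24.5% of the summed receptor RPKM in DKO and 25.3, 31.6, 36.1 and 32.8% in Control ovaries.

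The other receptors had smaller log2 fold changes than Fzd1, and none reached an unadjusted p of 0.05. Lrp5 and Lrp6 encode the co-receptors. Lrp5 was at 160, 137, 133 and 142 CPM in DKO and 131, 141, 113 and 160 CPM in Control ovaries, with a log2 fold change of 0.07 ± 0.12 and a 95% interval of -0.23 to 0.36. Lrp6 was at 184, 181, 152 and 200 CPM in DKO and 237, 192, 128 and 268 CPM in Control ovaries (-0.20 ± 0.20, interval -0.70 to 0.30). Both groups overlapped in both genes. Fzd4 was at 39.2, 47.2, 26.7 and 35 CPM in DKO and 34.1, 22.4, 10.3 and 33.8 CPM in Control ovaries, with Control 3 the lowest (0.56 ± 0.35, adjusted p = 0.502, and 0.31 without DKO 1 and DKO 2). The Frizzled genes Fzd2, Fzd3, Fzd5, Fzd7 and Fzd8 had log2 fold changes between -0.21 and 0.18 (-0.26 and 0.09 without DKO 1 and DKO 2), none past the test, and mean levels of 3.25 to 7.01 RPKM. Fzd9 and Fzd10 were under 1 RPKM on average, and Fzd6 had at most 3 counts in a library. Of the 11 receptors tested 4 lay above 0 and 7 below, with a median of -0.087, beside -0.021 over all genes.

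None of the 6 secreted antagonists tested reached an unadjusted p of 0.05. Sfrp4 (gene ID 20379, chromosome 13, 19623175 to 19632825) was at 732, 1520, 1800 and 2240 CPM in DKO and 571, 1130, 2230 and 1700 CPM in Control ovaries. The libraries spread about 3-fold or more within each group, and the log2 fold change was 0.16 ± 0.44 with a 95% interval of -0.92 to 1.23, which holds 2-fold higher levels in DKO. It was 0.54 without DKO 1 and DKO 2 and -0.07 without Control 1 and DKO 2. Sfrp4 took 85.2 to 93.8% of the antagonists' summed RPKM in DKO and 82.1 to 93.5% in Control ovaries.

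Sfrp1, of the same family, was at 162, 118, 121 and 170 CPM in DKO and 119, 160, 159 and 203 CPM in Control ovaries (-0.17 ± 0.18, adjusted p = 0.717). Dkk3, a divergent Dickkopf gene, was at 75.6, 69.8, 65.3 and 89.3 CPM in DKO and 83.0, 78.6, 59.3 and 85.6 CPM in Control ovaries, with an interval of -0.37 to 0.31. The values of both genes overlapped between groups. Frzb, which encodes another secreted Frizzled-related protein, was at 18.8, 23.1, 38.5 and 48.2 CPM in DKO and 19.4, 52.1, 64.7 and 57.6 CPM in Control ovaries, with DKO 1, DKO 2 and Control 1 the lowest (-0.59 ± 0.41, adjusted p = 0.555). Frzb was -0.14 ± 0.42 without DKO 1 and DKO 2 and -0.24 with the numbers in the sample titles as a block. That block sets DKO 1, DKO 2 and Control 1 apart from the rest, while the fit without DKO 1 and DKO 2 keeps Control 1. In the 5 libraries with the highest title numbers, without any of these, Frzb was -0.40 ± 0.16 (edgeR, adjusted p = 0.355). Sfrp2 was at 17.5 to 38.1 CPM in DKO and 9.44 to 30.5 CPM in Control ovaries. The Dickkopf genes that bind LRP5 and LRP6 were near 0, with Dkk2 at 0.635 to 2.93 CPM in DKO and 1.27 to 1.81 CPM in Control ovaries, Dkk4 with 4 counts in DKO 3 and 1 count in Control 3 and 0 elsewhere, and Dkk1 with 0 counts in all DKO libraries and 1 count each in Control 3 and Control 4. Wif1 had 2 to 9 counts in a library.

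R-spondins act through LGR receptors. Lgr4 (gene ID 107515, chromosome 2, 109917647 to 110014257), the main LGR receptor gene here at 49.5 RPKM, was at 165, 250, 178 and 246 CPM in DKO and 196, 276, 333 and 362 CPM in Control ovaries. Control 1 lay within the DKO range and the other Controls above it. The log2 fold change was -0.48 ± 0.21 (edgeR, adjusted p = 0.307), -0.44 without DKO 1 and DKO 2 and -0.71 without Control 1 and DKO 2 (adjusted p = 0.135). Lgr5, known as a marker of the ovarian surface epithelium in mice, was at 6.9, 16.5, 4.93 and 4.25 CPM in DKO and 10.7, 1.64, 1.79 and 2.44 CPM in Control ovaries (0.97 ± 0.70, adjusted p = 0.571). Without Control 1 and DKO 2, the libraries with the most surface and oviduct markers, Lgr5 was 1.47 ± 0.29 (adjusted p = 0.0663), and without DKO 1 and DKO 2 it was 0.16 ± 0.79. The last fit keeps Control 1. The 5 libraries with the highest title numbers leave out DKO 1, DKO 2 and Control 1. In these Lgr5 was 1.25 ± 0.28 (edgeR, adjusted p = 0.101).

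Of the R-spondin genes, Rspo1 was at 10.3, 15.4, 9.86 and 8.29 CPM in DKO and 20.1, 6.42, 5.36 and 7.14 CPM in Control ovaries, where Control 1 lay above all and the other Controls lay below all DKO libraries (0.17 ± 0.41, adjusted p = 0.892). Without Control 1 and DKO 2 Rspo1 was 0.60 ± 0.20 (adjusted p = 0.229), and without DKO 1 and DKO 2 it was -0.09 ± 0.54. The last fit keeps Control 1, where Rspo1 was highest. In the 5 libraries with the highest title numbers, without DKO 1, DKO 2 and Control 1, it was 0.54 ± 0.22 (edgeR, adjusted p = 0.355). Rspo2, made in mice by the oocyte, was at 4.06, 4.12, 11.8 and 7.12 CPM in DKO and 3.22, 14.4, 8.44 and 12.2 CPM in Control ovaries (-0.49 ± 0.48, adjusted p = 0.692, and 0.01 without DKO 1 and DKO 2). It was lowest in DKO 1, DKO 2 and Control 1, and was -0.28 ± 0.30 in the 5 libraries without these 3. Oocyte markers, summed over 6 genes, were at 113, 135, 389 and 238 CPM in DKO and 107, 399, 293 and 350 CPM in Control ovaries, low in the same 3 libraries, and their part in the Rspo2 values was not tested. Rspo3 was at 2.0 to 2.46 CPM in DKO and 1.87 to 4.39 CPM in Control ovaries (-0.47 ± 0.28, adjusted p = 0.481). Of these 5 genes 2 lay above 0 and 3 below, with a median of -0.47.

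Ctnnb1, which encodes β-catenin, a protein of cell junctions as well as of WNT signalling, lies on chromosome 9 (gene ID 12387, 120933400 to 120960507, plus strand). It was at 1060, 993, 780 and 819 CPM in DKO ovaries and 749, 679, 700 and 776 CPM in Control ovaries. All DKO libraries lay above all Controls, DKO 3 by little and DKO 1 and DKO 2 by most. The log2 fold change was 0.33 ± 0.13, or 1.26-fold, and it did not pass (edgeR, adjusted p = 0.243). Without DKO 1 and DKO 2 it was 0.16 ± 0.13 (adjusted p = 0.789). Ctnnb1 mRNA does not measure the amount of β-catenin protein.

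Axin2, which encodes a part of the β-catenin destruction complex and is a common target gene of canonical WNT signalling, was at 29.4, 30.4, 25.1 and 24.5 CPM in DKO and 29.1, 28.9, 28.2 and 28.6 CPM in Control ovaries. The DKO libraries fell on both sides of the Controls. Between groups the log2 fold change was -0.07 ± 0.10 with a 95% interval of -0.33 to 0.19 (edgeR, adjusted p = 0.812), and leaving out each library in turn gave -0.11 to -0.02. It was -0.19 without DKO 1 and DKO 2.

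**Figure D4:**
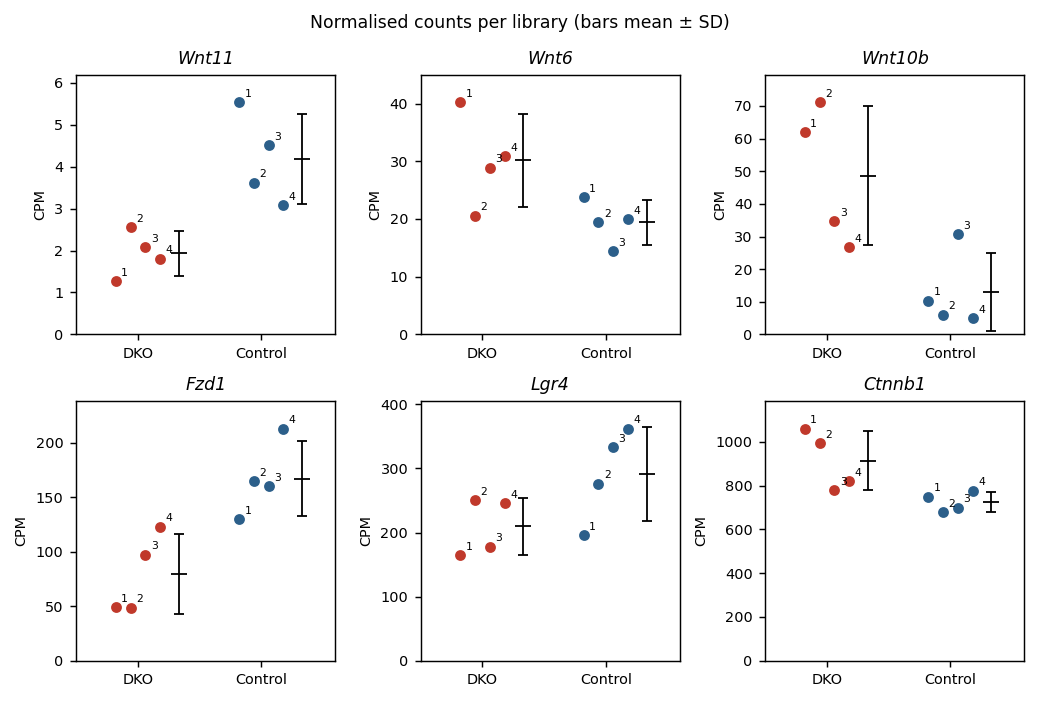
CPM in each library for 6 members with an unadjusted p under 0.05, DKO left and Control right, with the replicate number beside each point and bars of mean ± SD. Wnt11, Fzd1 and Ctnnb1 do not overlap, Wnt10b overlaps through Control 3, Wnt6 through DKO 2 and Lgr4 through Control 1.

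Other genes of the pathway, from secretion of the ligand to the transcription factors, were read from a list of 75, of which 68 were tested. The edgeR test called 0 higher and 0 lower, with 3 higher and 7 lower at an unadjusted p under 0.05, against 8.43% and 6.98% of all tested genes. Between groups 2 were wholly higher in DKO and 4 wholly lower, against 5.70% and 3.54%. Of these 68 genes 19 lay above 0 and 49 below, with a median of -0.12, beside 46.9% above 0 and -0.021 over all genes. DESeq2 called 1 higher (Tle2) and 3 lower (Porcn, Camk2d and Camk2a), against 4.13% and 3.06% of all genes. Limma-voom called 0 in either direction, and with quality weights 2 higher (Tspan12 and Tle2) and 4 lower (Porcn, Tle1, Camk2a and Camk2d), against 5.90% and 3.88%.

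Porcn, which encodes the enzyme that attaches the lipid that WNT proteins need for secretion, had the smallest adjusted p of the pathway. It was at 9.98, 14.6, 12.6 and 9.18 CPM in DKO ovaries and 25.1, 29.8, 55.6 and 18.6 CPM in Control ovaries. All DKO libraries lay below all Controls, and Control 3 was the highest. Its log2 fold change was -1.48 ± 0.32 (edgeR, adjusted p = 0.0642), and DESeq2 called Porcn lower (adjusted p = 0.000169), as did limma-voom with quality weights (adjusted p = 0.0106). It passed in edgeR without Control 3 (-1.08, adjusted p = 0.0389), and was -1.55 without DKO 1 and DKO 2 and -1.70 without Control 1 and DKO 2.

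The calcium/calmodulin kinase genes Camk2d and Camk2a, which act in the calcium branch, were the next lower genes by p. Camk2d was at 55.9, 58.1, 54.2 and 58.3 CPM in DKO and 72.1, 69.7, 64.0 and 74.5 CPM in Control ovaries, without overlap (-0.31 ± 0.09, adjusted p = 0.125, and 0.0466 without Control 3). Camk2a was at 2.97 to 3.77 CPM in DKO and 3.81 to 5.71 CPM in Control ovaries (-0.62 ± 0.21, adjusted p = 0.19). On the higher side were Tspan12, a tetraspanin co-factor of FZD4, at 23.9 to 28.4 CPM in DKO and 17.4 to 23.5 CPM in Control ovaries (0.39 ± 0.13, adjusted p = 0.17), and the co-repressor gene Tle2, at 63.7 to 118 CPM in DKO and 21.1 to 69.3 CPM in Control ovaries (1.04 ± 0.33, adjusted p = 0.172). The co-repressor genes Tle1 (-0.35 ± 0.12), Tle3 (-0.48 ± 0.20) and Tle4 (-0.47 ± 0.20) and the kinase gene Csnk1e (-0.40 ± 0.17) made up the rest of those lower at an unadjusted p under 0.05, and were chosen after their values were seen. Without DKO 1 and DKO 2 they were -0.24 for Tle1, -0.18 for Tle3, -0.20 for Tle4 and -0.21 for Csnk1e. Btrc, which encodes the ubiquitin ligase subunit that recognises β-catenin, was at 42.5 to 47.6 CPM in DKO and 37.9 to 41.3 CPM in Control ovaries (0.20 ± 0.09, adjusted p = 0.308).

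**Figure D5:**
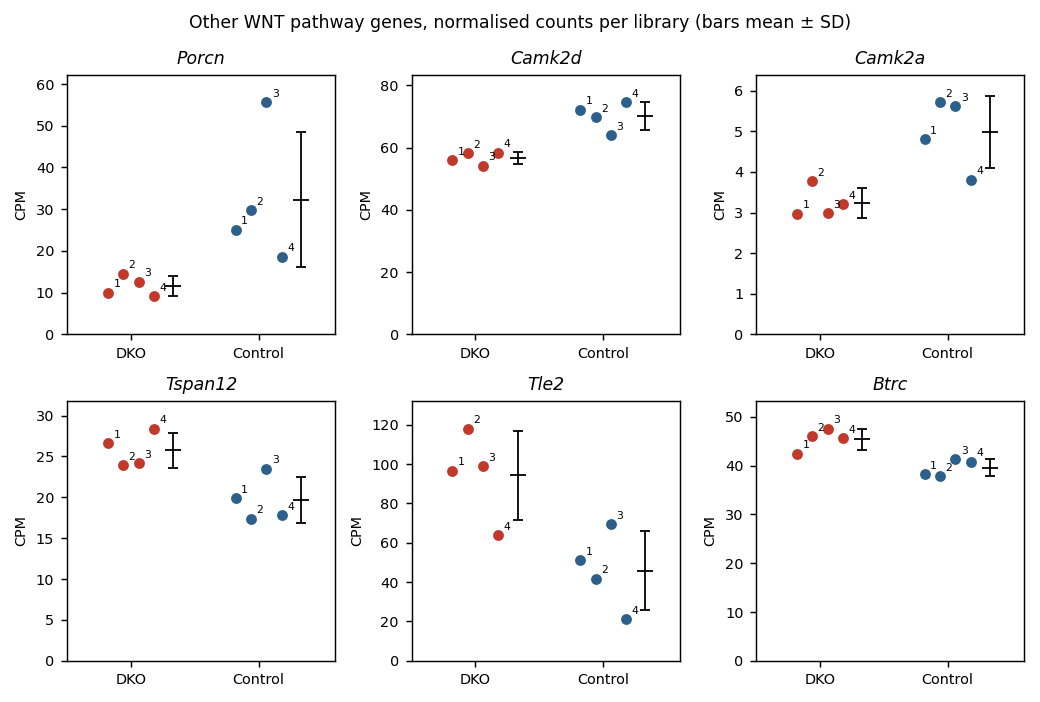
CPM in each library for 6 other pathway genes, the 3 with the smallest p in each direction, DKO left and Control right, with replicate numbers and bars of mean ± SD. Porcn, Camk2d and Camk2a are lower in every DKO library, Tspan12 and Btrc are higher in every DKO library, and Tle2 overlaps through DKO 4 and Control 3.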

How the data were processed

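RNA of whole ovaries was sequenced in 8 libraries with a stranded kit for messenger RNA, per the labels. Each library has 1 deposited table of raw counts per gene, which the authors computed by reverse-strand counting over RefSeq exons of GRCm38.p5 (featureCounts, Subread 1.5.2), per the file headers. The exon length of each gene, in bases, is a column of the same tables per the file headers. The submitters' processing notes also name STAR 2.4.2a and Trimmomatic 0.36 and 0.33. Reads that match several places were not treated by any stated option. Symbols came from a RefSeq table of GRCm38.p6, which matched 40290 of 41591 IDs (96.9%). A row for Fzd10os was left out as not protein coding. Exons of Fzd6, Lrp5 and Wnt7b overlap genes on the opposite strand. Totals ran between 33145056 and 39257648 counts per library.

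Groups and replicate numbers came from the sample descriptions. The labels do not say that the libraries come from separate animals, so p-values measure the spread between these libraries. Genes were kept with filterByExpr, and all 16870 were fitted in edgeR 4.0.16 (R 4.3.3) with TMM factors, robust dispersions and a quasi-likelihood F-test, two-sided, with Benjamini-Hochberg adjustment over all genes and a threshold of 0.05. The SE is the size of the log2 fold change divided by the square root of F. Alternatives were DESeq2 size factors, upper quartile factors or library size only, no filter, and a filter of 1 CPM in 4 libraries. DESeq2 1.42.0, limma-voom 3.58.1 with and without quality weights, non-robust dispersions and the replicate number as a block were also used. So were a block for the numbers in the sample titles, the 5 libraries with the highest title numbers alone, and leaving out each library. The title number block split numbers below 249 (DKO 1, DKO 2 and Control 1) from the rest. Fits without DKO 1 and DKO 2, or without Control 1 and DKO 2, were chosen after seeing the data. The fit was tested on simulated counts.

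Given in each library were the members with no overlap between groups, the smallest p of each role, the 10 most abundant, and the 3 other pathway genes with the smallest p in each direction. Values of Wnt5a, Wnt6, Wnt10b, Wnt2b, Wnt7b, Wnt16, Fzd4, Axin2 and the R-spondin and LGR5 genes were added after they were seen. The members and gene lists were chosen with earlier results of these data known.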

Additional observations from a re-analysis of the deposited data

Results flagged for a closer look

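In 9 cases 1 library of a group of 4 stood far from the other 3, with a gap, as a share of the group's range, above the 95% critical value of Dixon's test for 4 samples. Over the 90 combinations of gene and group checked, 6 other pathway genes included, chance flags about 1 in 20. Wnt4 was low in DKO 1 (143 CPM) and high in Control 3 (242 CPM). Sfrp2 was high in DKO 2 (38.1 CPM). Wnt7b was high in DKO 2 (2.86 CPM) and in Control 1 (3.55 CPM), and Wnt16 in DKO 2 (3.95 CPM) and in Control 1 (3.01 CPM). Lgr5 (10.7 CPM) and Rspo1 (20.1 CPM) were high in Control 1.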

How the results depend on the processing

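Over all genes tested, 212 passed with all 8 libraries, and between 2 and 506 when 1 library was left out. The count was 1107 with DESeq2, 1651 with quality weights, 526 with the title number block, 64 without DKO 1 and DKO 2 and 97 without Control 1 and DKO 2. Members called higher were 2 with quality weights and 0 to 1 with 1 library left out, the 1 being Wnt10b without Control 3. Members called lower were 2 with DESeq2, 2 with quality weights and 1 with the title number block (Fzd1, -0.96), and 0 with any library left out. Other pathway genes called higher were 1 with DESeq2 and 2 with quality weights, and those called lower 3 with DESeq2, 4 with quality weights and 0 to 2 with 1 library left out. The median of the tested members was -0.035 with the title number block, -0.031 without DKO 1 and DKO 2, and -0.038 to 0.12 with 1 library left out.

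The deviations of same-numbered libraries from their group means correlated at 0.156, -0.359, 0.312 and 0.468. The highest value of any DKO and Control pair was 0.638, for DKO 2 with Control 1. These values do not settle whether the replicate numbers pair the libraries. With the replicate block 743 genes passed, among them 1 member, Fzd1, lower (-1.17, adjusted p = 0.0303), and 1 other pathway gene higher and 2 lower.

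Small or scattered log2 fold changes turned sign. Dkk3 was 0.072 in the 5 libraries with the highest title numbers, 0.03 without DKO 1 and DKO 2, 0.059 without Control 1 and DKO 2 and -0.14 to 0.039 with 1 library left out. Fzd3 was 0.054 in those 5 libraries, 0.035 without DKO 1 and DKO 2 and -0.21 to 0.013 with 1 left out. Sfrp2 was -0.044 with the title number block, -0.22 without DKO 1 and DKO 2 and -0.22 to 0.36 with 1 left out. Without DKO 1 and DKO 2, Rspo1 was -0.092, Rspo2 0.011 and Wnt2b -0.39. That fit keeps Control 1. In the 5 libraries with the highest title numbers Rspo1 was 0.54, Rspo2 -0.28 and Wnt2b 0.77. Sfrp4 was -0.068 without Control 1 and DKO 2. Wnt7b was 0.099 with limma-voom, 0.69 with quality weights, 0.051 with the replicate block, 0.20 in the 5 libraries with the highest title numbers and 0.26 without Control 1 and DKO 2. With 1 library left out the range was -0.13 to 0.012 for Fzd5, -0.17 to 0.075 for Fzd7, -0.0093 to 0.16 for Lrp5, -0.038 to 0.81 for Rspo1, -0.084 to 0.47 for Sfrp4, -0.025 to 1.5 for Wnt2b and -1.28 to 1.39 for Wnt7b. Of the values for single members and pathway genes under these alternatives, 753 kept direction and side of the threshold, 22 passed it and 38 turned sign. The causes were not tested. In the simulated counts the fit recovered 20.9% of genes changed 1.5-fold and 76.1% of those changed 2-fold. With 4 libraries a group and an SE near 0.29, differences under 2-fold are hard to call for a single member, and 2-fold ones can be missed. Wnt11, at 0.461-fold with an SE of 0.29, did not pass (edgeR, adjusted p = 0.104).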
